A study of Mus musculus with 3 samples.

Results

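The genes described here encode 9 surface antigens by which mesenchymal stem cells and perivascular stromal cells are recognised or sorted: Thy1 (CD90), Eng (CD105), Nt5e (CD73), Mcam (CD146), Cspg4 (NG2), Cd200, Alcam (CD166), Cd44 and Ly6a (Sca-1). Members were the probesets that the array's annotation assigns to exactly 1 of these genes under its current or a former symbol. A probeset is a small group of probes on the array that is read as 1 value. This gave 129 of 318760 probesets with 1 gene name, and 8 of the 9 genes were measured, among 18865 genes with at least 4 probesets. No probeset in the annotation used names Alcam, so Alcam has no value here. The values are log2 expression values on 3 arrays of 1 group of cells: freshly isolated, flow-sorted GFP-positive bone marrow cells of C57BL/6 mice whose GFP is driven by the promoter of the nestin gene. The group is defined by the reporter alone, and there was no GFP-negative or other control group. Nothing in the labels tells whether the samples are different mice or different sorts. The p-values therefore reflect the spread of these 3 arrays, and that spread may be technical. RNA was amplified from a very small input before labelling.

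Bone marrow contains rare stromal cells around its vessels that support blood stem cells, can form bone, fat and cartilage, and are enriched among cells with nestin reporter activity. No single surface protein defines them, and they are therefore described by panels. Thy1, Eng and Nt5e are the classical positive markers of cultured human mesenchymal stem cells. Mcam and Cspg4 mark pericytes, Mcam and Eng also endothelium, and Ly6a marks mouse blood stem cells, many endothelial cells and some stromal progenitors. Cd44 is carried by most leukocytes and is acquired by stromal cells in culture.

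With 1 group, each gene was set against genes that should be silent on that array. The threshold was the 95th percentile of 352 olfactory, vomeronasal and taste receptor genes, which marrow cells should lack, and stood at 5.40, 5.61 and 5.65 on arrays 1, 2 and 3. A gene was called above background at an adjusted p below 0.05 in limma's one-sided test over all 18865 genes. The margin is a gene's mean distance above the threshold over the 3 arrays, on the log2 scale. Probe affinity enters every value, so levels of different genes or probesets are not ranked against each other. The sorted cells carried transcripts of niche stroma. Cxcl12, the chemokine that retains blood stem cells, stood at 11.75 ± 0.14 (SD, n = 3) and the leptin receptor gene Lepr at 11.38 ± 0.12. Of 11 niche stroma genes 10 were called (90.9%, beside 51.0% of all genes). The exception was Nes itself, with 5.97, 5.21 and 5.56 on arrays 1, 2 and 3 (limma, adjusted p = 0.725). Between arrays, Pearson's r across genes was at least 0.933. Genes are not independent replicates.

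Of the 8 measured antigens, 5 lay above background: Cd200, Ly6a, Eng, Mcam and Nt5e. Cd44, Cspg4 and Thy1 were not called. Among all genes tested 51.0% were called, and the members' 62.5% is not far from that share. Their median margin was 1.26, beside 0.52 over all genes. Against a stricter threshold, the 95th percentile of 45 genes of liver, retina, testis and other tissues, Cd200, Ly6a and Eng were called and Mcam and Nt5e were not (19.6% of all genes were called there). At the chemosensory background's 99th percentile the count was also 3 (20.8% of all genes), and at its 90th percentile it was 8 (63.8% of all genes).

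**Figure D1:**
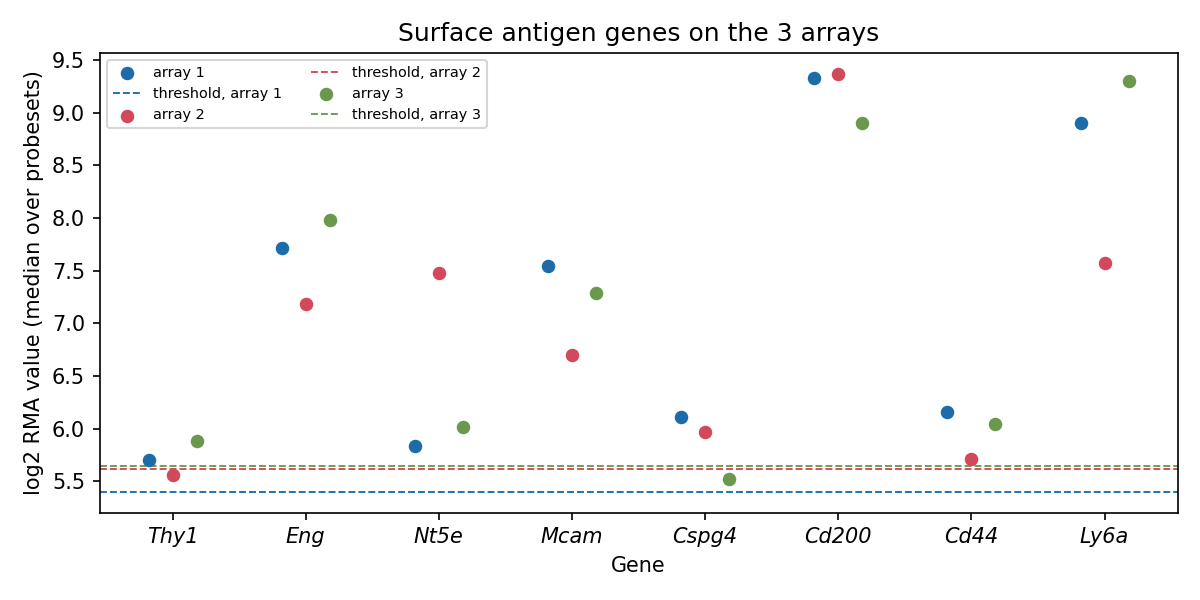
Each point is the log2 RMA value of a gene on 1 array, the median over its probesets, and dashed lines are the thresholds of the same arrays. Cd200 and Ly6a lie far above the lines on all 3 arrays, Nt5e is highest on array 2, and Thy1, Cspg4 and Cd44 lie close to the lines.

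Cd200 encodes an immunoglobulin-family glycoprotein that restrains myeloid cells through its receptor. It read 9.33 on array 1, 9.37 on array 2 and 8.91 on array 3. All 3 arrays were far above their thresholds, with a margin of 3.65 (limma, adjusted p = 1.17e-06). Of its 8 probesets 6 were called above the probeset background, where 20.8% of all named probesets were called. That background was the 95th percentile of chemosensory probesets, which lay between 6.99 and 7.18 on the 3 arrays. The highest probeset, 5213253, read 11.70, 11.03 and 11.24. The lowest, 5495411, read 8.77, 6.43 and 6.65 and was high on array 1 only. The called probesets, from 8.71 to 11.32 on average, spread over most of the gene's probesets.

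Genes of the receptor side gave no signal of that kind. Cd200r1, the inhibitory receptor, stood at 3.60 ± 0.03 (SD, n = 3) and Cd200r2 at 3.37 ± 0.28, both below the thresholds on every array. Of the 4 measured receptors for Cd200 and Alcam, limma called 0, beside 51.0% of all genes, and 0 had an unadjusted p under 0.05. A single gene, 1 of 4, exceeded the threshold on each array. That gene was Cd6, the T cell surface protein that binds Alcam, at 5.76 ± 0.13 (adjusted p = 0.248).

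Eng encodes endoglin, a co-receptor for TGF-beta and BMP ligands. It read 7.71 on array 1, 7.19 on array 2 and 7.98 on array 3. Every array was above its threshold, array 2 least, and the margin was 2.07 (limma, adjusted p = 3.29e-05). Of 26 probesets 9 were called (34.6%, beside 20.8% of all named probesets). The probeset 5292527 read 10.22, 9.60 and 10.20, and the lowest, 5164136, read 2.58, 4.16 and 4.82. The other probesets averaged between 6.26 and 8.98. Without array 1 the number of called Eng probesets was 5, and without array 3 it was 3.

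The list of endoglin partners held receptors, ligands, the signal transducers Smad1 and Smad5 and their target Id1. Of 11 measured genes 9 were called (81.8%, beside 51.0% of all genes), and 5 were called against the other-tissue background (19.6% of all genes). Betaglycan (Tgfbr3), the related co-receptor, stood at 10.27 ± 0.23 (SD, n = 3), the type II BMP receptor gene Bmpr2 at 8.98 ± 0.38 and the ligand gene Tgfb3 at 7.89 ± 0.79. Acvrl1, the type I receptor that pairs with endoglin in endothelium, read 7.87, 7.29 and 7.48. It was called (limma, adjusted p = 3.92e-05), and array 2 was lowest. Gdf2, which encodes the endoglin ligand BMP9, had 5.25 ± 0.23 and was not called.

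Mcam encodes an immunoglobulin-family adhesion molecule of pericytes and endothelium. It read 7.55 on array 1, 6.70 on array 2 and 7.29 on array 3. All arrays were above threshold and array 2 was lowest. The margin was 1.62 (limma, adjusted p = 0.000221). Its 22 probesets spanned a wide range, and 5 were called (22.7%, close to the 20.8% of all named probesets). Probeset 5393312 read 11.11, 11.20 and 11.13, almost the same on all arrays. The lowest, 5159452, read 2.65, 2.37 and 1.99. Array 1 was the highest in 15 of 22 probesets, by most in 5065697, which read 7.14 on array 1 and 2.66 and 2.85 on the other two. Probeset 5513226 had the same form, with 7.78, 5.13 and 5.18.

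Nt5e encodes the ecto-5'-nucleotidase that makes adenosine from AMP at the cell surface. It read 5.83 on array 1, 7.48 on array 2 and 6.01 on array 3. Arrays 1 and 3 were close to their thresholds and array 2 was well above. The margin was 0.89 (limma, adjusted p = 0.0196). Without array 2 the margin was 0.40 and the call was lost (limma, adjusted p = 0.183), as it was with no minimum of probesets per gene (adjusted p = 0.349, with 33.2% of genes called). Of its 13 probesets limma called 0, beside 20.8% of all named probesets, and 2 had an unadjusted p under 0.05. The highest, 4837000, read 7.67, 9.31 and 7.80 (limma, adjusted p = 0.0609).

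The adenosine pathway around Nt5e gave 5 calls among 8 measured genes (62.5%), not far from the 51.0% of all genes. Against the other-tissue background 2 were called, beside 19.6% of all genes. Upstream, the ectonucleotidase genes Entpd1, Entpd2 and Enpp1, whose products break down ATP, were all called. Enpp1 stood at 8.53 ± 0.24 (SD, n = 3), Entpd2 at 6.90 ± 0.17 and Entpd1 at 6.70 ± 0.23. The nucleoside transporter gene Slc29a1 stood at 8.02 ± 0.18. Downstream, Ada, which deaminates adenosine, was called at 6.43 ± 0.62, but not without array 1 (limma, adjusted p = 0.108). The adenosine receptor Adora3 had 4.24 ± 0.05 and Dpp4, a surface peptidase of T cells, 4.01 ± 0.04, and neither was called. The receptors Adora1, Adora2a and Adora2b have no probeset in the annotation used.

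Ly6a encodes a small GPI-anchored protein of the Ly6 family. It read 8.90 on array 1, 7.58 on array 2 and 9.30 on array 3. Every array was above threshold, and array 2 was the lowest by more than 1 log2 unit. The margin was 3.04 (limma, adjusted p = 3.67e-05). Only 4 probesets carry its name alone, the smallest number among the measured antigens, and 2 were called, or 1 without array 1 and 1 without array 3. Probeset 4789109 differed by array, with 10.39, 8.10 and 10.01, while 5356171 read 9.82, 10.28 and 10.42. A further 2 probesets are annotated to both Ly6a and Ly6c2 and were not used for the gene value. They read 9.77, 8.25 and 9.37, and 9.64, 8.78 and 9.91, with array 2 again lowest. Ly6 genes are close paralogs, so signal attributed to Ly6a may include theirs.

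Within the Ly6 family 8 of 25 other measured genes (32.0%) were called, beside 51.0% of all genes. Ly6e, which is widely expressed, stood at 9.91 ± 0.20 (SD, n = 3). Gpihbp1, which carries lipoprotein lipase on capillary endothelium, read 9.09, 6.16 and 8.89, and array 2 was lowest as for Ly6a. Ly6g6e (7.21 ± 0.65), Lypd2 (6.90 ± 0.15), Lynx1 (6.42 ± 0.24), Ly6h (6.38 ± 0.17), Ly6g6c (6.31 ± 0.16) and Lypd1 (6.00 ± 0.11) made up the other calls, and that of Lypd1 was lost whichever 1 array was left out. Ly6c2 had 5.83 ± 0.22 and was not called (limma, adjusted p = 0.147). Ly6g, the neutrophil antigen, had 3.23 ± 0.53. Thy1, Nt5e and Ly6a all need a GPI anchor. Of 27 genes of its synthesis 21 were called (77.8%, beside 51.0% of all genes), among them Pigt at 8.22 ± 0.33 and Dpm2 at 8.36 ± 0.41. The count was 7 against the other-tissue background (19.6% of all genes) and 9 at the 99th percentile (20.8% of all genes). Pigu, which with Pigt belongs to the enzyme that attaches the anchor, read 9.81, 8.26 and 7.83, highest on array 1. Pgap1, which remodels the anchor, had 5.11 ± 0.31 and was not called.

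Thy1, Cspg4 and Cd44 lay near the threshold, and their probesets differed from one another. Thy1, a small GPI-anchored glycoprotein of thymocytes, neurons and fibroblasts, read 5.70 on array 1, 5.56 on array 2 and 5.88 on array 3. Array 2 was below its threshold and the margin was 0.16 (limma, adjusted p = 0.339). Of its 9 probesets 1 was called (11.1%, beside 20.8% of all named probesets). That was 5221932, with 8.48, 7.99 and 8.08 (limma, adjusted p = 0.0178), and this call was lost without array 1 and without array 3. The other 8 averaged between 4.30 and 6.96.

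Cspg4 encodes the NG2 proteoglycan of pericytes and glial progenitors. It read 6.12 on array 1, 5.96 on array 2 and 5.52 on array 3. Array 3 was below its threshold, and the margin was 0.31 (limma, adjusted p = 0.164). Of 16 probesets 3 were called (18.8%, close to the 20.8% of all named probesets). Among them was 4777755 with 8.32, 8.39 and 7.96, while the lowest probeset, 5359161, read 5.04, 3.94 and 3.24. Without array 1 limma called 0 of these probesets and without array 3 it called 1. When probesets were averaged, where 55.0% of all genes were called, the gene passed (limma, adjusted p = 0.0103).

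Cd44 encodes the hyaluronan receptor, whose transcript has a block of variable exons that many cells skip. It read 6.16 on array 1, 5.71 on array 2 and 6.04 on array 3. All arrays were above their thresholds by a small distance, and the margin of 0.42 missed the test (limma, adjusted p = 0.0682). Its 31 probesets spread more widely than those of any other member except Mcam, from an average of 1.97 to 9.52. Of the 31 probesets 4 were called (12.9%, beside 20.8% of all named probesets). The 4 included 5400790, with 9.63, 9.67 and 9.26, and 5138008, with 8.12, 8.91 and 8.92. Without array 2 the number of called Cd44 probesets was 2. The annotation used does not say which exon a probeset reads. Cd44 was called when probesets were averaged (limma, adjusted p = 0.0274), with at least 8 probesets per gene (adjusted p = 0.0358, with 59.7% of genes called) and with the arrays centred (adjusted p = 0.0369, with 51.9% of genes called).

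**Figure D2:**
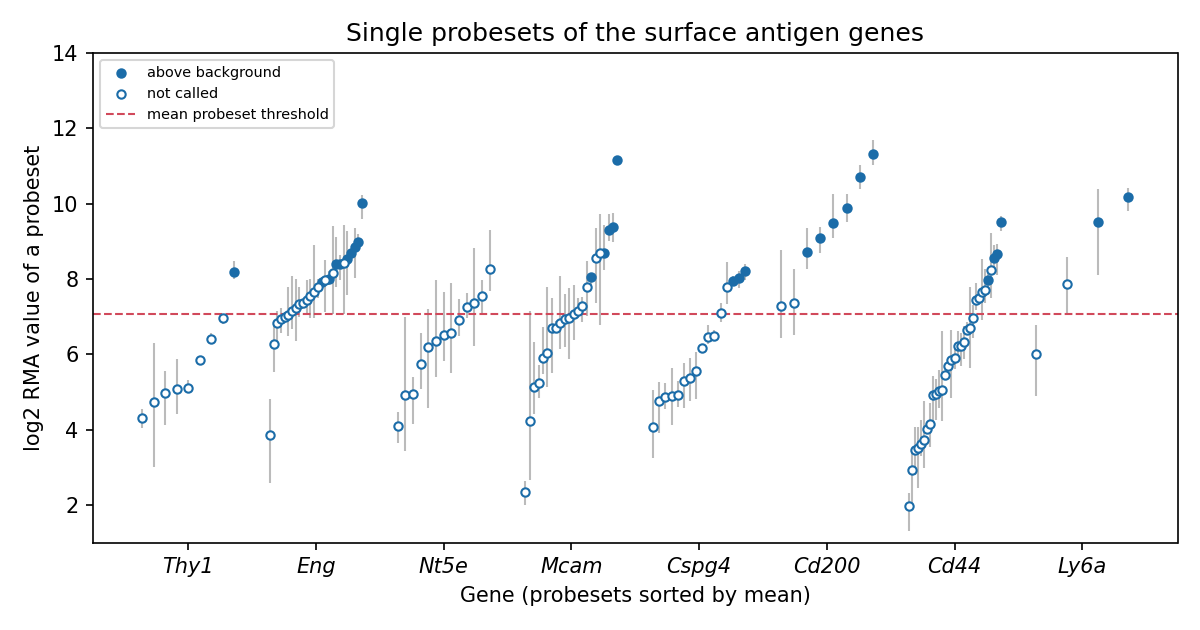
Each point is the mean log2 RMA value of 1 probeset over the 3 arrays, the grey bar spans the 3 arrays, filled points were called above the probeset background, and the dashed line is the mean probeset threshold. Filled points are 6 of 8 for Cd200, 9 of 26 for Eng, 4 of 31 for Cd44, 1 of 9 for Thy1 and 0 of 13 for Nt5e. Among all named probesets 20.8% were called.

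Over the 8 antigens 30 of 129 probesets were called (23.3%), close to the 20.8% of all named probesets. Probesets of 1 gene share their transcript and are not replicates. The count was 19 without array 1, 27 without array 2 and 18 without array 3, where 16.9%, 17.5% and 15.4% of all named probesets were called. It was 57 at the 90th percentile of the background probesets, 5 at the 99th and 6 against the other-tissue probesets, where 34.1%, 4.87% and 6.18% were called.

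Partners of these antigens were described from lists. Of 12 hyaluronan genes and Cd44 partners 8 were called (66.7%, beside 51.0% of all genes). Against the other-tissue background 4 were called, beside 19.6% of all genes. Osteopontin (Spp1), a Cd44 ligand, stood at 10.22 ± 0.40 (SD, n = 3), radixin (Rdx), which links Cd44 to actin, at 9.27 ± 0.30, and the protease gene Mmp14 at 8.05 ± 0.11. The hyaluronan synthase genes Has1, Has2 and Has3 were not called, with Has1 at 6.00 ± 0.36, Has2 at 5.60 ± 0.58 and Has3 at 5.11 ± 0.13. Of 12 partners of Mcam, Cspg4 and Thy1 8 were called (66.7%), and 6 against the other-tissue background. Among the 8 were the Mcam ligand laminin alpha-4 (Lama4, 9.10 ± 0.03) and the endocytic receptor gene Lrp1 (8.69 ± 0.28). The type VI collagen gene Col6a1 (9.38 ± 0.29), whose protein binds NG2, was another. Itgax, an integrin of dendritic cells, had 5.02 ± 0.11. Of 24 further stromal surface antigens 19 were called (79.2%), and 13 against the other-tissue background. Integrin beta-1 (Itgb1) stood at 11.31 ± 0.05, the metalloprotease CD10 (Mme) at 11.18 ± 0.05, and the transferrin receptor gene Tfrc, at 4.69 ± 0.33, was not called.

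**Figure D3:**
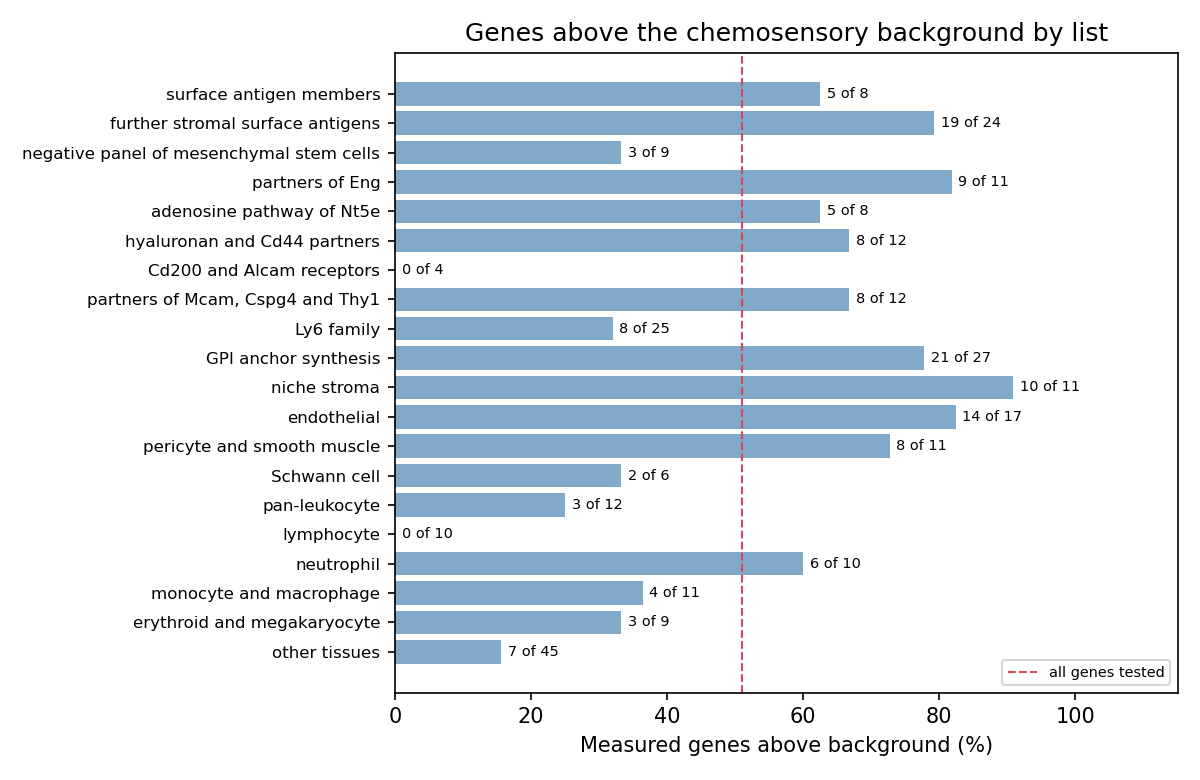
Bars give the percentage of measured genes of each list that were called above the chemosensory background, with the counts beside them, and the dashed line marks the 51.0% called among all genes. The lists of further stromal antigens, niche stroma, endothelial, pericyte and smooth muscle, and neutrophil genes are among those to the right of the line, and the Ly6 family, the negative panel and the pan-leukocyte and lymphocyte lists lie to its left.

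Mesenchymal stem cells are also defined by antigens they should lack. Of 9 measured genes of this negative panel 3 were called (33.3%, beside 51.0% of all genes). Ptprc (CD45), present on all leukocytes, stood at 4.68 ± 0.40 (SD, n = 3), the myeloid integrin gene Itgam at 5.41 ± 0.13, Cd14 at 5.55 ± 0.44, the B cell gene Cd79a at 4.85 ± 0.22 and the class II gene H2-Aa at 4.51 ± 0.28, and none of these was called. H2-Ab1, the other class II chain, read 7.08, 4.50 and 5.42 and was not called. Without array 2 it was called at a margin of 0.72, although array 3 lay below its threshold of 5.65. That call rests on array 1, because limma pooled the variances of the genes completely in that setting. The called genes were Pecam1, an endothelial and platelet adhesion molecule, with 8.92, 6.73 and 8.46, Kit, the stem cell factor receptor, with 5.92, 7.01 and 6.69, and Cd34, with 6.10, 5.58 and 7.12. Pecam1 and Cd34 were lowest on array 2, where Kit was highest. The call of Cd34 was lost without array 1 and without array 3.

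Between arrays, the antigens did not move as 1 group. Eng, Mcam, Ly6a, Cd44 and Thy1 were lowest on array 2, which was the lowest array for 34.0% of all genes. Nt5e was highest there. Cd200 was highest there only by a little, with 9.37 beside 9.33 on array 1, and array 2 was highest in 3 of its 8 probesets. Deviations are given from a gene's mean over the arrays after removing each array's median deviation over all genes, on the log2 scale. Ly6a deviated by 0.28, -1.02 and 0.74 on arrays 1, 2 and 3, Eng by 0.06, -0.45 and 0.39, and Mcam by 0.34, -0.49 and 0.15. Nt5e deviated by -0.63, 1.03 and -0.39. Among Cd200, Cspg4, Thy1 and Cd44 the largest deviation was that of Cspg4 on array 3, -0.31. The ranges over the arrays, 1.73 for Ly6a and 1.64 for Nt5e, were larger than those of 97.1% and 96.6% of all genes. Each array is a single sample, so these differences have no test.

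Single probesets show how far each gene's probesets shared the pattern. For Nt5e array 2 was the highest in 9 of 13 probesets, with a median difference of 1.27 between array 2 and the mean of the other two. For Ly6a array 2 was lowest in 3 of 4 probesets, for Mcam in 14 of 22 and for Eng in 15 of 26, and the median differences were -1.46, -0.61 and -0.38. Over all named probesets array 2 was lowest in 34.3% and highest in 34.3%. For Cd44 array 2 was lowest in 8 and highest in 13 of 31 probesets.

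**Figure D4:**
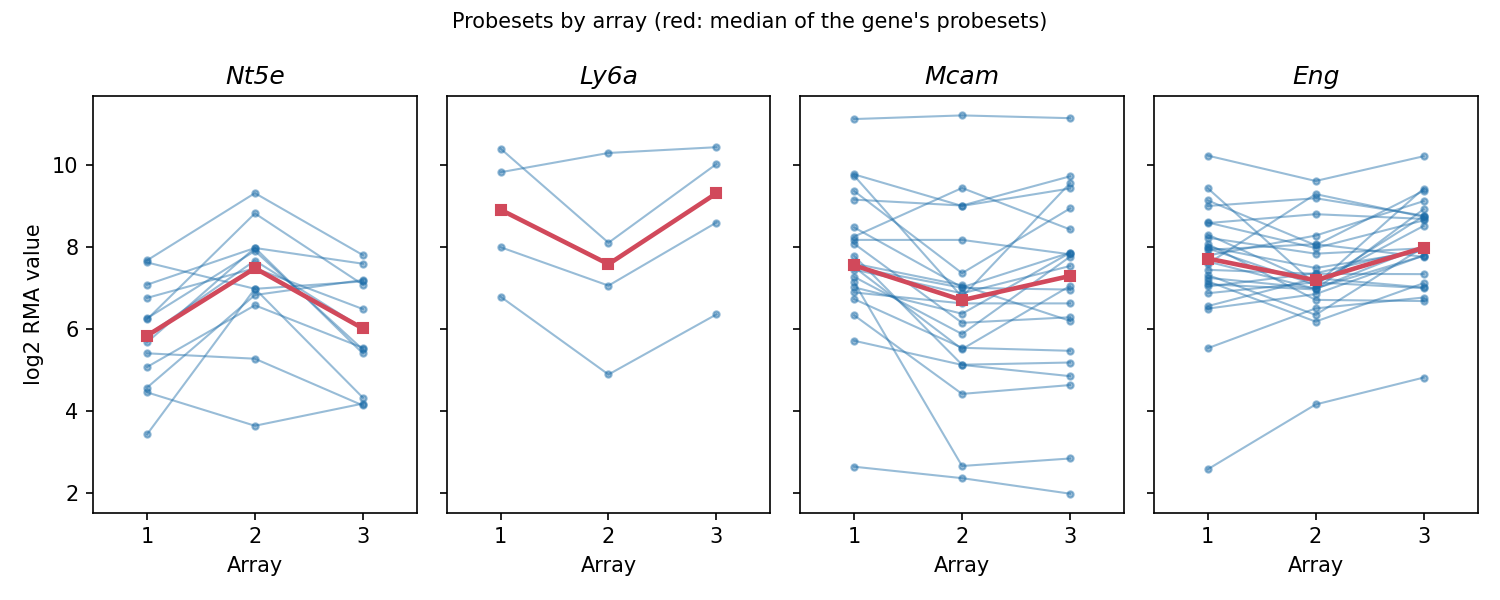
Thin lines join the log2 RMA values of 1 probeset on arrays 1, 2 and 3, and the red line is the median of the gene's probesets. Array 2 is high for most Nt5e probesets, and low for 3 of 4 Ly6a probesets and for a smaller majority in Mcam and Eng.

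The endothelial list was also low on array 2, and it is printed here because endothelium is 1 of the cell types that carry Eng, Mcam and Ly6a. All 17 measured endothelial genes were lowest on array 2. Of them 14 were called (82.4%, beside 51.0% of all genes). The count was 8 without array 1, 16 without array 2 and 11 without array 3. It was 3 at the 99th percentile of the background and 3 against the other-tissue background, where 20.8% and 19.6% of all genes were called. In the fit without array 2 limma pooled the variances of the genes completely and left aside each gene's own spread. Its calls, here and below, are therefore not directly comparable with those of the other fits. The median level of the list was 7.05, 6.01 and 7.61 on arrays 1, 2 and 3, and VE-cadherin (Cdh5), whose call was lost without array 1 (limma, adjusted p = 0.0512), read 9.14, 6.05 and 9.58. In other lists, too, some genes were low on array 2: Hbb-b1 read 10.49, 8.33 and 10.56, and Mrc1 8.39, 4.44 and 9.15. Both were picked after their values were seen. Array 2 was lowest in 3 and highest in 3 of 9 erythroid and megakaryocyte genes. For monocyte and macrophage genes it was lowest in 4 and highest in 4 of 11, and for pericyte and smooth muscle genes in 5 and 1 of 11. The part of the endothelial genes, or of these, in the values of Eng, Mcam and Ly6a was not tested. On arrays of sorted pools, fewer cells of a type and less RNA per cell cannot be told apart. Without array 2 the margins were 2.32 for Eng, 1.89 for Mcam and 3.58 for Ly6a, and all 3 were called, where 48.3% of all genes were. Without array 1 the margins were 1.95, 1.36 and 2.81, and without array 3 they were 1.94, 1.62 and 2.73. These calls were made as well, where 46.1% and 48.0% of all genes were called. The pan-leukocyte list had 3 of 12 genes called, with median levels of 5.29, 5.25 and 5.71, and the lymphocyte list had 0 of 10 by limma, where 0 had an unadjusted p under 0.05 and 2 exceeded the threshold on each array. Neutrophil genes had 6 of 10 called, with median levels of 6.29, 6.29 and 6.37, pericyte and smooth muscle genes 8 of 11, with 7.17, 6.26 and 6.37, and Schwann cell genes 2 of 6. Monocyte and macrophage genes had 4 of 11 called, or 2 without array 1, erythroid and megakaryocyte genes 3 of 9, and genes of other tissues 7 of 45.

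**Figure D5:**
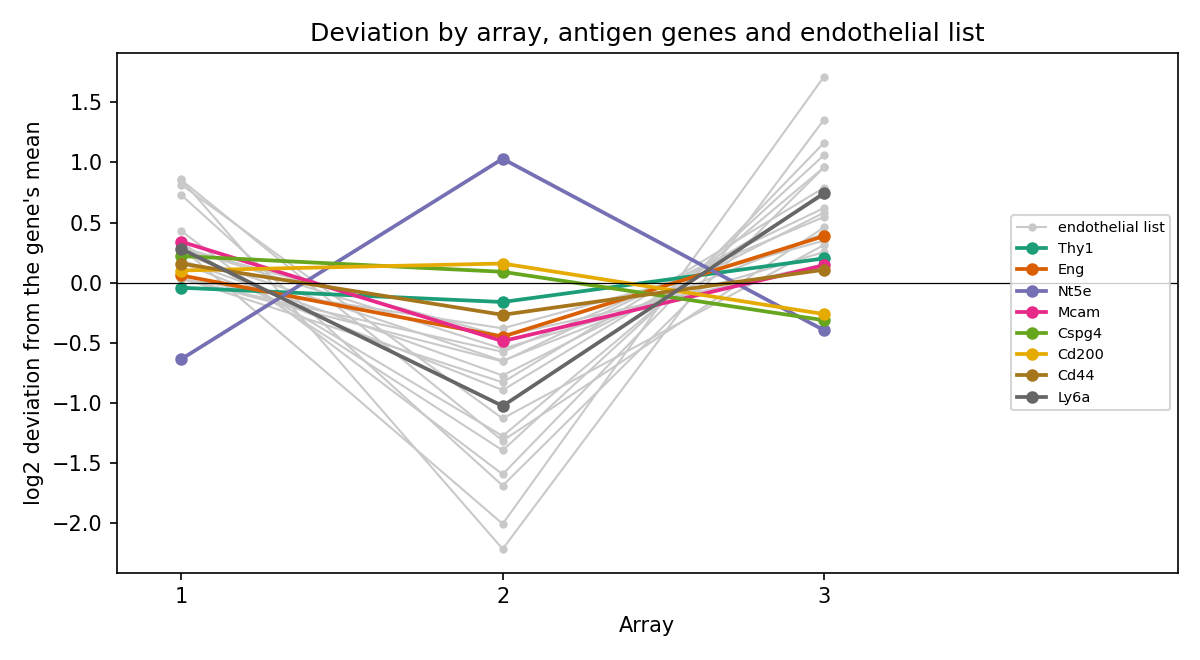
Lines give the log2 deviation of each gene from its own mean on arrays 1, 2 and 3, after removal of the array's median deviation, coloured for the 8 antigens and grey for the 17 endothelial genes. All grey lines dip on array 2, as do Ly6a, Eng and Mcam, while Nt5e rises to 1.03 there.

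The genes nearest to each pattern were found among 9619 called genes by the largest absolute difference in deviation on any of the 3 arrays. Nearest to Nt5e were Cracr2a (5.99, 7.62 and 6.12 on arrays 1, 2 and 3), Dnm3os (6.10, 7.70 and 6.20) and Trappc2l (6.98, 8.64 and 7.07), with a largest difference of 0.061. Nearest to Ly6a were Vrk1 (7.01, 5.63 and 7.45), Pnpt1 (7.33, 6.08 and 7.79) and Gkap1 (7.75, 6.41 and 8.07), with a largest difference of 0.047. With 3 arrays many genes come this close: 55 called genes lay within 0.25 of Nt5e and 48 within 0.25 of Ly6a.

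Upstream sequences are shown to compare 2 of the members that were low on array 2, Eng and Mcam, with Nt5e, which was high there. For Ly6a and Thy1, also lowest there, the sequence source used held no entry. The sequences of Cd44, also lowest there, and of Cd200, highest there only by a little, are not shown. The sequences shown are the 250 bases before the gene start in RefSeq's annotation of GRCm38.p6, 5' to 3' on the plus strand. They lie at chr2:32646345-32646594 for Eng, chr9:44134408-44134657 for Mcam and chr9:88327359-88327608 for Nt5e. Capitals mark GGGCGG, the core of the GC box bound by Sp1-type factors, on either strand (CCGCCC when read on the other), and overlapping matches are counted separately.
Eng: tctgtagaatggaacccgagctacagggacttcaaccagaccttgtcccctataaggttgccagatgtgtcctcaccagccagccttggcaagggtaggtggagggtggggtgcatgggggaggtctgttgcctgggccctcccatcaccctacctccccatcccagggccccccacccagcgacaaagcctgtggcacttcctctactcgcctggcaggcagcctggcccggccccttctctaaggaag
Mcam: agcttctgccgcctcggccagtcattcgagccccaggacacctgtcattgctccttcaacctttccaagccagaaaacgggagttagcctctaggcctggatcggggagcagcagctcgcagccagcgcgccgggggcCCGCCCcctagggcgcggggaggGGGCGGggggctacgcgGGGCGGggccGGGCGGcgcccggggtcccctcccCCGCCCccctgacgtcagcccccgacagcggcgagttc
Nt5e: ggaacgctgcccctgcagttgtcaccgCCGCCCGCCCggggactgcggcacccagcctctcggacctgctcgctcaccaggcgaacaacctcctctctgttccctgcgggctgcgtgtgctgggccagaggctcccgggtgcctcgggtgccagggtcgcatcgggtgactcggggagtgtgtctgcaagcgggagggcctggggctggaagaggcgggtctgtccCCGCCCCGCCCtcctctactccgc
Mcam held 5 matches, Nt5e 4 and Eng 0, and 33.0% of 32536 promoter windows of this length held at least 1. GC content was 73.6% for Mcam, 72.0% for Nt5e and 62.4% for Eng, against a median of 52.4%. TATAAA, present in 12.3% of windows, was found in none of the 3. Of the windows not shown, that of Cd44 held 0 GGGCGG matches at 56.4% GC and that of Cd200 held 1 at 42.4%. Whether these sequences bear on the differences between arrays was not tested. A match describes the letters of these windows and is not a binding site.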

How the data were processed

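RNA of flow-sorted cells was amplified, converted to sense strands and hybridised to Affymetrix exon-level arrays, 3 in 1 group. The deposited log2 values per probeset come from RMA (background correction, normalisation between arrays and summary of probes) in Affymetrix Expression Console 1.1, per the submitters' processing notes. Which RMA settings and annotation build were used is not given in the sources used here. The values ran from 0 to 13.74 with array medians of 5.20, 5.22 and 5.24, and 20744 probesets at exactly 0 on all arrays were all unnamed.

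Of 1256831 probesets 318760 had 1 gene symbol in the platform's annotation table, and 4227 symbols were updated through RefSeq synonyms (GRCm38.p6). A gene's value was the median of its probesets, with at least 4 required. An intercept-only limma 3.58.1 model (R 4.3.3) was fitted to each gene's value minus the array's threshold, tested one-sided, with Benjamini-Hochberg adjustment over all genes, and likewise over all named probesets. The background genes had a median of 5 probesets each, and 9 of 352 were called. On simulated data with 18865 genes the test detected 39 of 50 planted genes at a margin of 0.5, 48 of 50 at 1 and 1 of 50 at 0, and with 318760 probesets 13 of 50, 34 of 50 and 2 of 50. The number of arrays limits precision.

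Members and gene lists were chosen with earlier results of these data known, and no list was given a set test. Named were all members, the negative panel and the called Ly6 genes, and of other partner lists up to 3 called genes with the largest margin and the gene with the smallest. Other listed genes named for their role, and the Mcam probesets that differed on array 1, were chosen after their values were seen. For cell type lists mostly counts and medians are given. Alternatives were the mean over probesets, other probeset minimums and percentiles, an other-tissue background, no values of 0, centred arrays, and leaving out each array.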

Additional observations from a re-analysis of the deposited data

How the results depend on the processing

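The count of called antigens was 5. It was 8 with the 90th percentile of the background genes, 3 with the 99th and 3 with the other-tissue background, and ranged from 4 to 5 when 1 array was left out. It stayed between 4 and 7 with the mean over probesets, with other probeset minimums and with centred arrays. The count of called member probesets was 30, and it was 57, 5 and 6 under the same 3 backgrounds and 18 to 27 with 1 array left out. Of the genes in the partner and cell type lists 134 were called, 59 with the 99th percentile and 55 with the other-tissue background. Cd200, Ly6a and Eng were called under every alternative that gave them a value (Ly6a has too few probesets for the minimum of 8). Mcam lost its call at the 99th percentile and against the other-tissue background, and Nt5e without array 2 and with no probeset minimum. Margins below 0 arose as follows: with no probeset minimum, -0.34 for Thy1, -0.19 for Cspg4 and -0.083 for Cd44; at the 99th percentile, -1.04 for Thy1, -0.32 for Nt5e, -0.89 for Cspg4 and -0.79 for Cd44; against the other-tissue background, -1.11, -0.38, -0.96 and -0.85. Of these thresholds, only that of the 99th percentile is higher by construction. The others were taken from other sets of background genes and came out higher. With no probeset minimum they stood at 6.03, 6.12 and 6.01 on arrays 1, 2 and 3. Against the other-tissue background they stood at 7.03, 6.75 and 6.69, beside 5.40, 5.61 and 5.65 in the main setting. Without array 2, limma pooled the variances of the genes completely, and its p-values there are small. Adding the 2 probesets shared with Ly6c2, an alternative chosen after seeing the data, gave Ly6a a margin of 3.62. The number of antigens lowest on array 2 was 5, and 4 with the mean over probesets. No paired analysis was possible because there was 1 group.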

Other observations

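Some listed genes that fall outside the naming rule were singled out after their values were seen, because 1 array stood apart. Cd248, which encodes endosialin, a marker of pericytes and fibroblasts, read 6.03 on array 1, 8.42 on array 2 and 6.39 on array 3, high on array 2 as Nt5e was. Dpm3, a subunit of the enzyme that makes the mannose donor for GPI anchors, read 6.46, 8.58 and 7.50, also highest on array 2. Tgfb1, a ligand of the endoglin receptor complex, read 8.04, 5.53 and 5.61, with array 1 far above the others. It did not pass the test (limma, adjusted p = 0.112). Without array 2 Tgfb1 was called at a margin of 1.30, but array 3 lay below its threshold of 5.65. That call rests on array 1, because limma pooled the variances of the genes completely there and left aside the gene's own spread. These are single arrays, and the differences have no test.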
